A study of Mus musculus with 6 samples.

Results

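The proteasome genes of regulatory T (Treg) cells were compared between mice in which Tkt, the gene of transketolase, is targeted in these cells and their controls. The set consists of the 50 genes, of 18493 in the table, whose symbol begins with Psm followed by a letter from a to g and a digit; no row of this kind was marked as a pseudogene. They comprise 7 alpha-ring genes, 10 beta-ring genes of which 3 are constitutive and 3 are immunoproteasome catalytic subunits, 6 ATPases, 3 non-ATPase genes of the base, 8 lid genes, 5 activators and inhibitors, 7 assembly factors and 2 tissue-restricted core genes. A further pair of rows matches the symbol without encoding a separate subunit: Psmc3ip, a recombination factor, and Psme2b, a retrogene copy of Psme2.

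Treg cells hold immune responses in check and are defined by the transcription factor Foxp3, and transketolase exchanges sugar phosphates between the pentose phosphate pathway and glycolysis. The cKO cells were CD4+CD25+YFP+ cells of Foxp3cre/+ TKTfl/fl females (3 libraries, cKO1 to cKO3), and the WT cells were sorted by the same markers from Foxp3cre/+ females (3 libraries, WT1 to WT3). All mice were untreated C57BL/6 females aged 7 weeks, and the cells came from spleen and lymph nodes. Both groups therefore carry the Foxp3-driven Cre, and they differ by the floxed Tkt alleles. The labels call both groups chimeric: Foxp3 is X-linked, so females with 1 Cre allele are mosaics, and sorting on YFP collects cells that use the Cre-bearing chromosome. Which exons are floxed is not stated. Whether 1 library is 1 mouse or a pool is not stated either, so p-values reflect only the spread of these 6 libraries.

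The 26S proteasome degrades proteins tagged with ubiquitin. Its barrel-shaped 20S core has outer alpha rings and inner beta rings, and proteolysis is carried out by the subunits Psmb5, Psmb6 and Psmb7. The 19S regulator, built of a base with an ATPase ring and a lid, binds, unfolds and feeds the substrate. In lymphocytes and in interferon-treated cells, newly made cores take up Psmb8, Psmb9 and Psmb10 in place of Psmb5, Psmb6 and Psmb7. The resulting immunoproteasome, often capped by the PA28 activator of Psme1 and Psme2, cuts peptides suited to MHC class I molecules.

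The libraries held 17647866 to 18215168 estimated counts in cKO and 17180577 to 17715571 in WT. Tkt itself had 52.5, 44.8 and 31.9 CPM (counts scaled to library size) in cKO libraries and 126, 97.1 and 121 CPM in WT libraries, without overlap (edgeR adjusted p = 0.0516). Foxp3, Il2ra and the other 5 T cell and Treg markers were all detected, and their summed level was 3900 to 4190 CPM in cKO and 4330 to 4740 CPM in WT. The largest gap in means was that of Ctla4, 736 CPM in cKO and 1096 CPM in WT, with WT2 at 1727 CPM. Ikzf2 alone of the 7 was lower in every cKO library, as were 8.12% of all genes. It had 608, 537 and 599 CPM in cKO libraries and 670, 714 and 626 CPM in WT libraries (adjusted p = 0.642 in edgeR's test). The log2 fold changes of Foxp3 and Il2ra were 0.05 and 0.005. Of the 7 markers, 4 lay below 0 and 3 above, and 0 were called in edgeR's test. No marker of B, myeloid, CD8 T and NK, erythroid or stromal cells was at 0 in every library; the sums were 39.0 to 93.0, 41.3 to 95.8, 30.8 to 36.9, 3.34 to 197 and 225 to 250 CPM in cKO, against 51.0 to 74.6, 35.6 to 69.1, 34.5 to 38.4, 0.277 to 5.56 and 190 to 223 CPM in WT, in that order. The erythroid sum of 197 CPM belongs to cKO1 alone, and most of the stromal sum is Pecam1, which T cells also express (205.3 to 235.1 CPM in cKO and 186.9 to 205.2 CPM in WT). On the first principal component of all genes (36.1% of the variance), WT2 and cKO1 lay together at 25.4 and 33.3, cKO2 at 8.11 and the other libraries between -25.9 and -18.4.

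The promoters of 4 catalytic subunits are shown, Psmb8 and Psmb9 with Psmb5 and Psmb6, without those of Psmb7 and Psmb10. Each is the 250 bases before the start used in the RefSeq promoter table on GRCm38.p6, the build also called mm10, read 5′ to 3′ on the strand of the gene, with capitals for motif matches on either strand. For Psmb8, Psmb9 and Psmb5 that start is the boundary of the RefSeq gene. For Psmb6 the gene begins earlier, at 70525324, so the end of its window lies inside the gene.
Psmb8 (chr17:34197945-34198194, plus strand): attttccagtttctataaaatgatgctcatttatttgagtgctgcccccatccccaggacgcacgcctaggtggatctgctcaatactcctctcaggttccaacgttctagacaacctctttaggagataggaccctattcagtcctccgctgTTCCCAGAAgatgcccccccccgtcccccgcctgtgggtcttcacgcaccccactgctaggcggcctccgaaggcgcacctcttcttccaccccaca
Psmb9 (chr17:34187331-34187580, minus strand): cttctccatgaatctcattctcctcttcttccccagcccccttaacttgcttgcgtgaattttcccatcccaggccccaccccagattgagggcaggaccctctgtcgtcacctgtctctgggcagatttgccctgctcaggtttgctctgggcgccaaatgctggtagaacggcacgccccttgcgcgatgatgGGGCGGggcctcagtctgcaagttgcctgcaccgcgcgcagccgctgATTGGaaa
Psmb5 (chr14:54617996-54618245, minus strand): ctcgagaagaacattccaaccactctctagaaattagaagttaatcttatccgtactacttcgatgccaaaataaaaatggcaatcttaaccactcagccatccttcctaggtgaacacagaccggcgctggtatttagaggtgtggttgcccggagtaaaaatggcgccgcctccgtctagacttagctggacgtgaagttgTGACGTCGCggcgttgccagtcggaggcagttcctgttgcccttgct
Psmb6 (chr11:70525107-70525356, plus strand): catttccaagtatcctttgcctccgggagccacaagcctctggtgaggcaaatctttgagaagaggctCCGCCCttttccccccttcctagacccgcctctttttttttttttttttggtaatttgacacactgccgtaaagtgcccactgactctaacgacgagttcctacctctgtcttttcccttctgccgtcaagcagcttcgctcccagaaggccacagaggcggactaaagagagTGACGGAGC

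The motifs searched on both strands were TGACNNNGC, the antioxidant response core bound by Nfe2l1 and Nfe2l2; CCAAT, the box of NF-Y; GGGCGG, the GC box of Sp1; GAAANNGAA, a core of the element bound by interferon regulatory factors; and TTCNNNGAA, a site of STAT factors. None of these strings contains another. TGACNNNGC matched 47 to 39 bases before the start in Psmb5 and 9 to 1 bases before the start used in Psmb6, a match that lies inside the annotated gene. It matched in neither immunosubunit shown. TTCNNNGAA matched 97 to 89 bases before the start of Psmb8, and Psmb9 held a reversed CCAAT 8 to 4 bases and a GGGCGG 55 to 50 bases before its start. Psmb6 held a reversed GGGCGG 182 to 177 bases before its start. GAAANNGAA matched in none of the promoters shown, nor in any immunoproteasome gene with a window. Over the 40 subunit, regulator and assembly genes with a window, 5 (12.5%) held TGACNNNGC, against 11.5% of 27025 genes with a window. The shares were 55.0% against 35.4% for GGGCGG, 35.0% against 37.5% for CCAAT, 7.5% against 8.2% for GAAANNGAA and 5.0% against 8.1% for TTCNNNGAA. A match is only a run of letters in this window, and a missing match does not speak to binding of the factor.

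Transcript levels were near even within some parts of the proteasome and spread several-fold within others. Levels between genes are given as FPKM, fragments scaled by gene length and depth, as deposited, averaged over all 6 libraries. Among the alpha-ring genes they ran from 27.1 FPKM for Psma5 to 104.8 FPKM for Psma2, a span of 3.87-fold, and among the ATPases from 37.4 FPKM for Psmc2 to 63.2 FPKM for Psmc3, a span of 1.69-fold. The non-catalytic beta genes lay between 71.1 FPKM (Psmb2) and 122.7 FPKM (Psmb1). The base genes lay between 22.5 FPKM for Psmd1, a scaffold, and 74.1 FPKM for Psmd4, a ubiquitin receptor. In the lid, Psmd6 was lowest at 25.8 FPKM and Psmd13 highest at 127.0 FPKM. The assembly factors were lower than every 20S subunit gene but Psmb8 and the tissue-restricted pair, from 5.78 FPKM for Psmg3 to 19.4 FPKM for Psmg4.

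**Figure D1:**
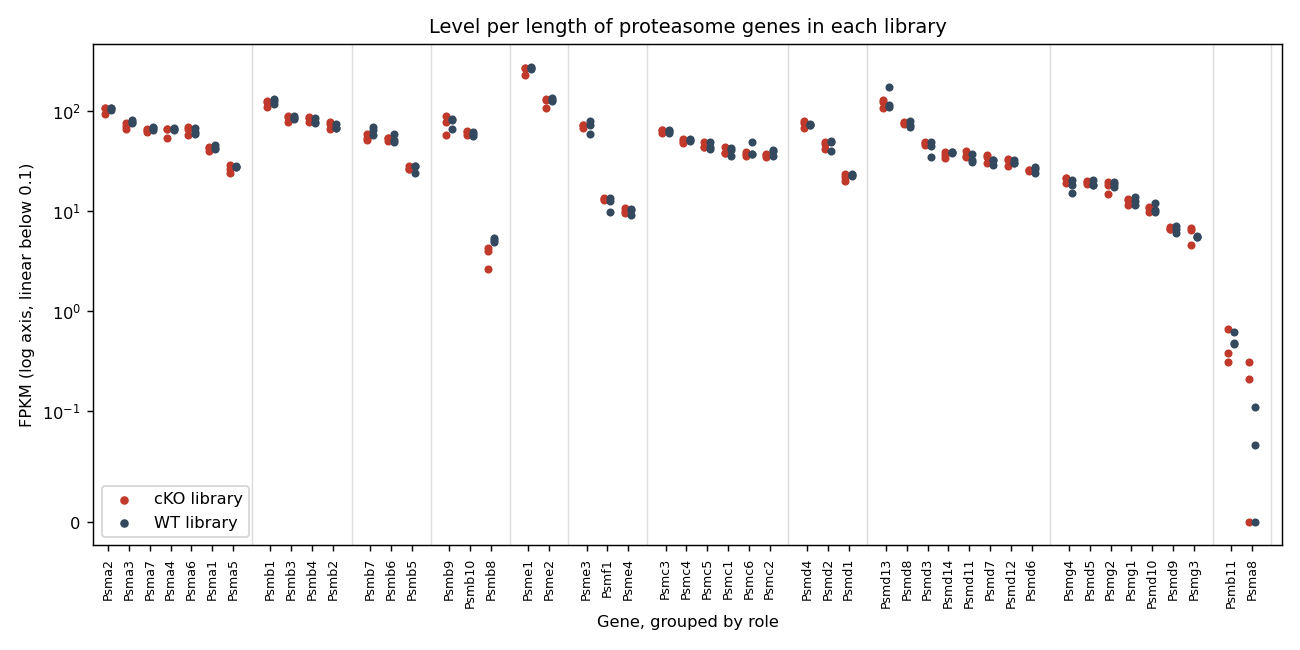
FPKM of each proteasome gene in each of the 3 cKO (red, left) and 3 WT (dark, right) libraries, on an axis that is logarithmic above 0.1 and linear below it; genes are grouped by role and ordered by level within a role. Psme1 stands highest at a mean of 264 FPKM, Psmb8 stands at 4.40 FPKM among catalytic subunits of 26.9 FPKM and above, and Psmb11 and Psma8 lie at the bottom.

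No proteasome gene passed the test between cKO and WT cells. Of the 49 genes that passed the filter on low counts, 0 were called in edgeR's quasi-likelihood test (adjusted p under 0.05 over all 12887 genes tested), where 0.21% of all genes were called. At an unadjusted p under 0.05, 2 were lower in cKO, Psmb7 and Psmb8, and 0 were higher, against 5.01% and 2.68% of all genes. In CPM, all cKO libraries were below all WT libraries in 4 genes (Psmb7, Psmb8, Psma3 and Psmc2). In 0 genes were they above, against 8.12% and 6.1% of all genes. Psmb7 and Psmc2 overlapped in FPKM. Each of these shares of members is close to or below that of all genes. In bulk RNA of sorted cells, fewer cells of a type and less RNA per cell cannot be told apart.

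Across the 47 tested genes that encode subunits, regulators or assembly factors, the log2 fold changes, cKO over WT, ran from -0.51 (Psmb8) to 0.18 (Psmg4). Their median was -0.01, against 0.00 for all genes, with 26 values below 0 and 21 above. The median size of the change, regardless of sign, was 0.05, against 0.10 for all genes and 0.07 for the 2276 genes whose mean CPM lay between the quartiles of the 47 (40.4 to 86.0 CPM). For 45 of the 47, or 95.7%, the 95% interval of the fitted change lay wholly within 1.5-fold in either direction, which held for 64.2% of all genes and 91.0% of the genes of like level. The exceptions were Psmb8 and the scarce Psmb11. Changes smaller than 1.5-fold remain possible within these intervals.

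**Figure D2:**
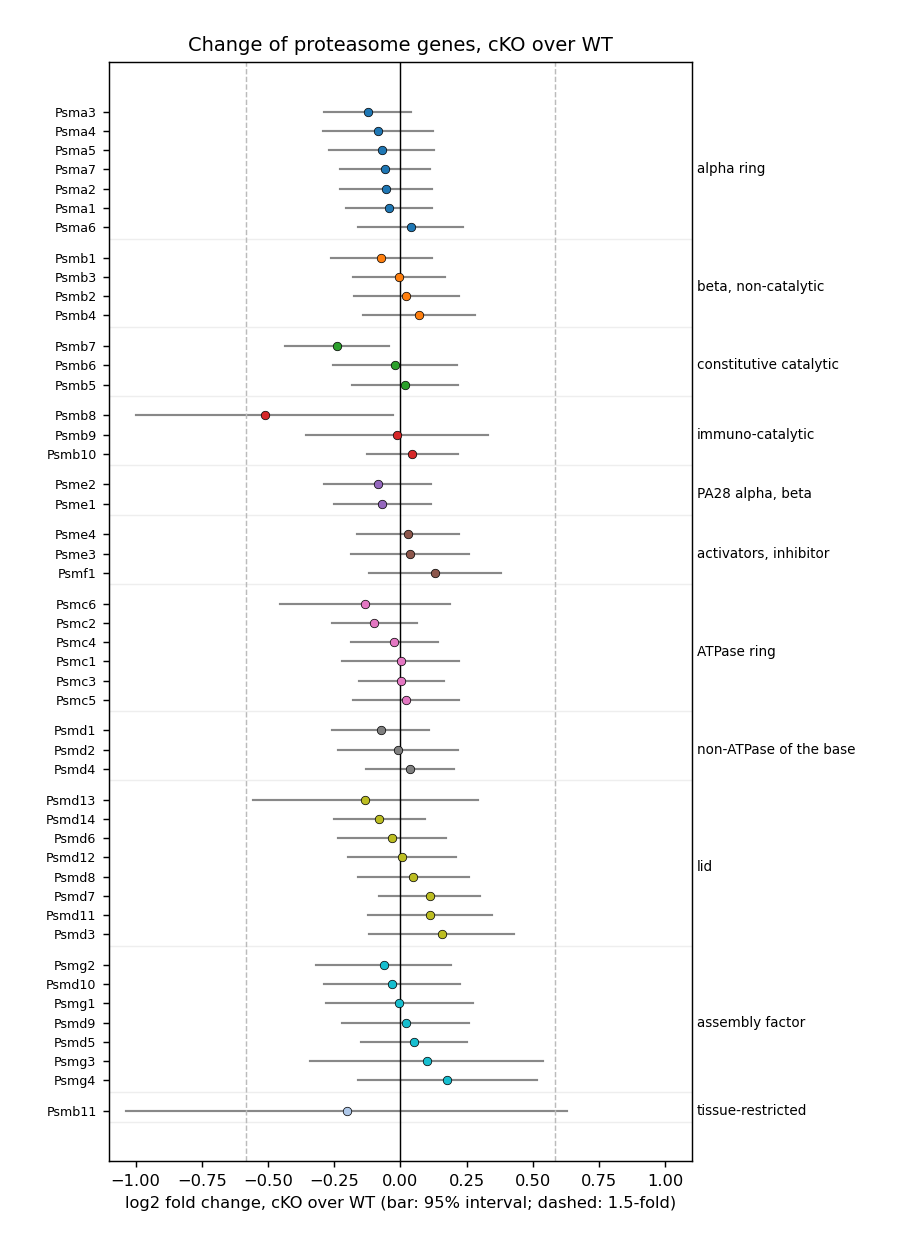
Fitted log2 fold change, cKO over WT, of the 47 tested subunit, regulator and assembly genes, with 95% intervals (bars) and lines at 1.5-fold (dashed), by role. Most points lie near 0, with Psmb8 lowest at -0.51, Psmb7 at -0.24 and Psmb11 at -0.20. The intervals of Psmb8 and Psmb11 alone reach beyond the dashed lines.

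Of the constitutive catalytic subunits, Psmb7, which carries the trypsin-like activity, had the lowest p of the set. It stood at 45.5, 47.5 and 52.2 CPM in cKO libraries and at 60.2, 54.3 and 57.1 CPM in WT libraries. The highest cKO library, cKO3, lay just below the lowest WT library, WT2, so the groups did not overlap in CPM. In FPKM they overlapped, with cKO3 at 58.8 FPKM above WT2 at 57.5 FPKM. Its log2 fold change was -0.24 ± 0.08 (SE; 95% interval -0.44 to -0.04), and it did not pass over all genes (adjusted p = 0.517 in edgeR's test). Over the alternatives the change ran from -0.30 to -0.20 and the adjusted p from 0.343 to 0.964. The gene lies on chromosome 2 at 38588046 to 38643952, where RefSeq also places Gm13586, and had whole counts in every library.

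The other constitutive catalytic subunits were level between the groups. Psmb5, the chymotrypsin-like subunit, had 22.9, 22.4 and 23.7 CPM in cKO libraries and 23.6, 20.9 and 23.6 CPM in WT libraries. Psmb6, the caspase-like subunit, had 52.5, 54.4 and 54.5 CPM in cKO libraries and 49.4, 62.2 and 52.0 CPM in WT libraries. Both overlapped between the groups, and WT2 held the lowest value of Psmb5 and the highest of Psmb6. The log2 fold changes were 0.02 ± 0.09 for Psmb5 (interval -0.18 to 0.22) and -0.02 ± 0.10 for Psmb6 (SE; interval -0.25 to 0.21).

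Psmb8, the immunosubunit that takes the place of Psmb5, had the lowest fold change of the set. It stood at 3.26, 5.12 and 4.73 CPM in cKO libraries and at 6.49, 6.40 and 5.86 CPM in WT libraries. All cKO libraries lay below all WT libraries, with cKO1 far below the rest. The means were 4.37 ± 0.99 CPM in cKO and 6.25 ± 0.34 CPM in WT (SD, n = 3 each), a log2 fold change of -0.51 ± 0.21 (SE; 95% interval -0.998 to -0.03). It did not pass over all genes (adjusted p = 0.612 in edgeR's test). Without WT2 and cKO1, the libraries that lie together on the first principal component, it was -0.32, and over all alternatives it ran from -0.65 to -0.32 with adjusted p from 0.537 to 0.964.

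The level of Psmb8 was itself unlike that of its partners. It averaged 4.40 FPKM, against 76.1 FPKM for Psmb9 and 60.0 FPKM for Psmb10, and Psmb9 exceeded it 12.8- to 22.4-fold in each library. The gene lies on chromosome 17 at 34198195 to 34201454, in the MHC region, 969 bases from Tap1 and 3024 bases from Tap2, and Psmb9 lies on the other side of Tap1 at a distance of 225 bases. Tap1 and Tap2, the peptide transporter genes, had 318 to 345 and 268 to 296 CPM in cKO libraries, against 279.8 to 340.5 and 238 to 299.6 CPM in WT libraries, and overlapped between groups. The estimated counts of Psmb8 were not whole in any of the 6 libraries. The same held for Psmb9 and Psmb5, and those of Psmb10 were not whole in 4 libraries. GENCODE places Gm20496, which is not a row of the table used here, on the other strand over part of Psmb8. Neither the origin of the fractions nor the use of strand in counting is stated, so the level of Psmb8 is uncertain.

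Psmb9 and Psmb10, which take the places of Psmb6 and Psmb7, did not follow Psmb8. Psmb9 had 49.4, 62.7 and 72.0 CPM in cKO libraries and 63.7, 54.9 and 67.1 CPM in WT libraries. Psmb10 had 83.7, 74.4 and 80.1 CPM in cKO libraries and 79.8, 75.04 and 76.03 CPM in WT libraries. Both overlapped between the groups, and in Psmb9 the cKO libraries held both the lowest and the highest value. The log2 fold changes were -0.01 ± 0.15 for Psmb9 (interval -0.36 to 0.33) and 0.05 ± 0.07 for Psmb10 (SE; interval -0.13 to 0.22), and that of Psmb9 was -0.14 without cKO3 and 0.12 without cKO1.

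**Figure D3:**
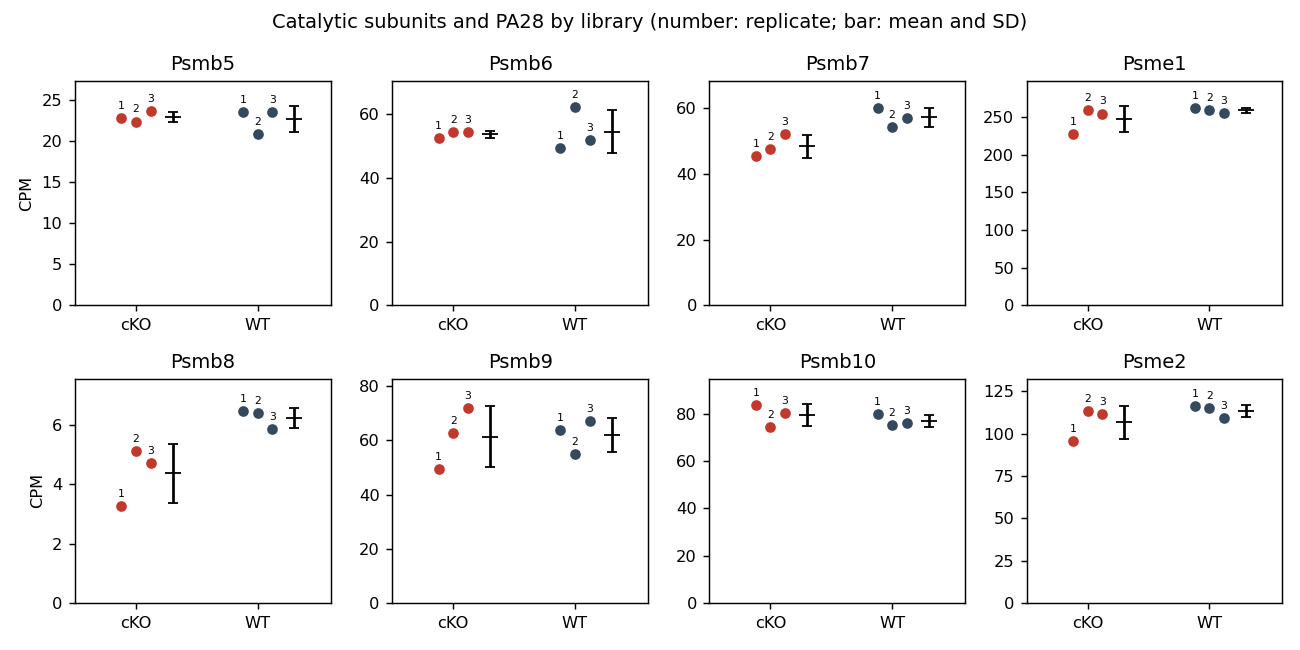
CPM of the 6 catalytic subunits and of the PA28 genes Psme1 and Psme2 in each library (points, numbered by replicate), cKO left and WT right, with mean and SD (bars, n = 3). The groups separate in Psmb7 and Psmb8, and cKO1 is lowest in Psmb8, Psmb9, Psme1 and Psme2.

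The PA28 activator genes were the most abundant of the immunoproteasome set. Psme1, its alpha chain, had 227, 259 and 255 CPM in cKO libraries and 261, 259 and 256 CPM in WT libraries. Psme2, its beta chain, had 95.6, 113 and 112 CPM in cKO libraries and 116, 115 and 109 CPM in WT libraries. In both genes cKO1 alone lay well below the other 5 libraries. Their log2 fold changes were -0.07 ± 0.08 and -0.09 ± 0.09 (SE), and -0.01 and -0.00 without WT2 and cKO1. Per length Psme1 exceeded Psme2 by 2.03- to 2.14-fold in the 6 libraries, and the genes lie 5912 bases apart on chromosome 14. Psme1 overlaps Emc9, which had 4.44 ± 0.28 CPM in cKO and 4.57 ± 0.90 CPM in WT (SD, n = 3 each), and the counts of Psme2 were not whole in any library.

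The share of immunosubunit transcripts among catalytic transcripts was near even in both groups. Summed over the 3 pairs, Psmb8, Psmb9 and Psmb10 made up 49.3%, 51.0% and 52.4% of the catalytic FPKM in cKO libraries and 50.1%, 47.4% and 50.6% in WT libraries. The means were 50.9 ± 1.57% in cKO and 49.4 ± 1.72% in WT (SD, n = 3 each), and the groups overlapped, with a difference of 1.53 percentage points. With the median of the 3 pair shares instead, cKO libraries had 53.8%, 51.6% and 51.6%, and WT libraries 46.98%, 49.3% and 47.6%. The difference was 4.34 percentage points, without overlap, so the result depends on the summary used. This median was the share of Psmb10 with Psmb7 in every library but cKO1, where it was that of Psmb9 with Psmb6. It therefore reflects mainly a single pair and not a combined share. The single pairs differed from each other in direction. Psmb8 made up 9.14%, 13.9% and 12.4% of the FPKM of Psmb8 and Psmb5 in cKO libraries and 16.2%, 17.7% and 14.8% in WT libraries, lower in every cKO library. Psmb10 made up 55.1%, 51.6% and 51.6% of the FPKM of Psmb10 and Psmb7 in cKO libraries and 46.98%, 49.3% and 47.6% in WT libraries, higher in every cKO library. In CPM, Psmb7 of that pair was lower in every cKO library than in every WT library. In FPKM, the unit of the shares, Psmb7 overlapped, with 58.8 FPKM in cKO3 and 57.5 FPKM in WT2. Psmb10 overlapped between groups in both units. For Psmb9 with Psmb6 the shares were 53.8%, 59.2% and 62.1% in cKO libraries and 62.1%, 52.5% and 62.0% in WT libraries, and overlapped. These shares are descriptions without a test, and with 3 libraries against 3 an exact two-sided permutation test cannot go below 0.1.

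**Figure D4:**
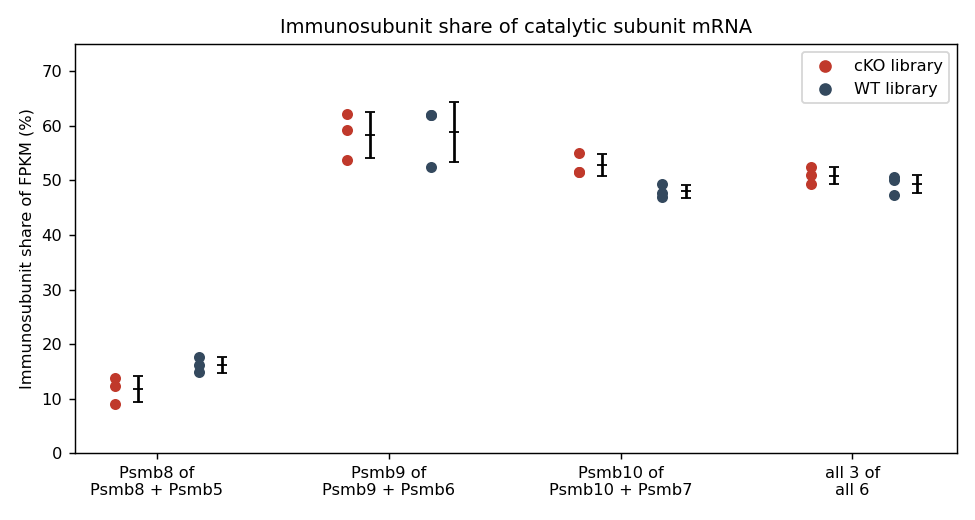
Share of the immunosubunit in the FPKM of each catalytic pair and, at the right, of the 3 immunosubunits in the FPKM of all 6 catalytic subunits, per library (points), cKO left and WT right of each position, with mean and SD (bars, n = 3). Psmb8 with Psmb5 is lower and Psmb10 with Psmb7 is higher in every cKO library, and the summed share overlaps near 50.9% in cKO and 49.4% in WT.

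In the rest of the core, the alpha ring was slightly below 0 in 6 of its 7 genes, with a median log2 fold change of -0.06. Psma3 stood at 85.8, 90.8 and 92.9 CPM in cKO libraries and at 97.7, 101.9 and 94.1 CPM in WT libraries. These groups did not overlap, by the narrow gap between cKO3 and WT3, and the log2 fold change was -0.12 ± 0.07 (SE, adjusted p = 0.789 in edgeR's test). Without WT2 and cKO1 the changes of Psma2, Psma4 and Psma5 were above 0, at 0.02, 0.03 and 0.01. The 4 non-catalytic beta genes split evenly around 0, from -0.07 (Psmb1) to 0.07 (Psmb4).

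The 17 genes of the 19S regulator showed no common shift, with a median log2 fold change of 0.00 and with 8 values below 0 and 9 above. Psmc2, an ATPase, had 63.1, 64.4 and 65.0 CPM in cKO libraries and 71.1, 65.2 and 69.7 CPM in WT libraries. This non-overlap rests on the small gap between cKO3 and WT2, and in FPKM the groups overlapped. The log2 fold change of Psmc2 was -0.10 ± 0.07 (SE, adjusted p = 0.847 in edgeR's test). Psmd7, a partner of the lid deubiquitinase Psmd14, had 49.9, 54.6 and 56.5 CPM in cKO libraries and 51.2, 46.9 and 50.9 CPM in WT libraries. It had the lowest p among those of the 47 genes with a value above 0 (log2 fold change 0.11 ± 0.08 SE, adjusted p = 0.853 in edgeR's test), yet the groups overlapped.

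A single library set the values of several regulator genes. Psmd3, a lid scaffold, had 102.1, 101.7 and 103 CPM in cKO libraries and 104.4, 76 and 94.95 CPM in WT libraries, so that its log2 fold change of 0.16 ± 0.12 (SE) became 0.04 without WT2. Psmd13, another lid gene, had 158, 146 and 128 CPM in cKO libraries and 136, 206 and 132 CPM in WT libraries, and its change of -0.13 became 0.11 without WT2. Psmc6, an ATPase, stood at 62.9, 55.0 and 56.8 CPM in cKO libraries and at 56.4, 77.9 and 57.4 CPM in WT libraries, and its change of -0.13 became 0.03 without WT2. Psmd13 and Psmc6 thus stood out upward, and Psmd3 downward, in WT2.

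Among the remaining activators and the inhibitor, no gene differed beyond the spread of the libraries. Psme3, the nuclear PA28 gamma, had 226, 215 and 229 CPM in cKO libraries and 235, 191 and 227 CPM in WT libraries. Psme4, which encodes the activator PA200, had 71.9, 62.5 and 64.6 CPM in cKO libraries and 65.2, 61.7 and 68.0 CPM in WT libraries. Psmf1, which encodes the inhibitor PI31, had 41.98, 39.9 and 41.4 CPM in cKO libraries and 40.7, 31.9 and 39.9 CPM in WT libraries. All overlapped, and the values of Psme3 and Psmf1 in WT2 lay well below the other 5 libraries. The log2 fold changes were 0.04 ± 0.10 for Psme3, 0.03 ± 0.08 for Psme4 and 0.13 ± 0.11 for Psmf1 (SE), and that of Psmf1 was 0.01 without WT2 and cKO1.

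The assembly chaperones Psmg1 to Psmg4 build the alpha ring and stay out of the finished particle. Psmg1 had 12.9, 12.7 and 11.0 CPM in cKO libraries and 13.2, 11.3 and 12.1 CPM in WT libraries, and its partner Psmg2 had 16.1, 20.4 and 18.6 CPM in cKO libraries and 19.8, 18.6 and 19.2 CPM in WT libraries. Psmg3 had 3.95, 5.51 and 5.29 CPM in cKO libraries and 4.44, 4.78 and 4.56 CPM in WT libraries, and its partner Psmg4 had 8.43, 10.7 and 10.1 CPM in cKO libraries and 9.26, 8.85 and 7.77 CPM in WT libraries. In Psmg2, Psmg3 and Psmg4, cKO1 was the lowest cKO library and cKO2 the highest of all 6 libraries. The change of Psmg4, 0.18 ± 0.14 (SE; interval -0.16 to 0.52), was the highest of the 47 and did not pass (adjusted p = 0.888 in edgeR's test). The base assembly factors Psmd5, Psmd9 and Psmd10 lay between -0.03 and 0.05.

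The tissue-restricted core genes were at the edge of detection. Psmb11, the thymoproteasome subunit of cortical thymic epithelium, had 2.97, 1.31 and 1.61 CPM in cKO libraries and 1.996, 2.75 and 2.03 CPM in WT libraries. The highest value, in cKO1, stands for 51 estimated counts. It lies 7314 bases from Psmb5 on chromosome 14, and its counts were not whole in any library. Psma8, the alpha subunit of the testis proteasome, had 0, 0.491 and 0.334 CPM in cKO libraries and 0, 0.12 and 0.169 CPM in WT libraries and was not tested.

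The 2 rows outside the complex were handled apart. Psme2b had 24.1, 13.8 and 12.5 CPM in cKO libraries and 13.4, 7.18 and 13.7 CPM in WT libraries, with cKO1 high, WT2 low and the other 4 libraries alike. Its log2 fold change of 0.55 ± 0.32 (SE, adjusted p = 0.792 in edgeR's test) became -0.04 without WT2 and cKO1. The gene lies within 9930111J21Rik1 (483 ± 10.3 CPM in WT), on chromosome 11 at 48945345 to 48946410, and resembles Psme2, so its reads cannot be assigned with certainty. Psmc3ip, which helps strand exchange in recombination, had 1.69, 1.58 and 1.89 CPM in cKO libraries and 2.39, 1.85 and 1.97 CPM in WT libraries, which overlapped narrowly (log2 fold change -0.27 ± 0.24 SE).

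Levels of proteasome genes were steady between libraries. The ratio of the highest to the lowest library had a median of 1.19 over the 47 genes, against 1.25 over the 2276 genes of like level. It was above 1.5 in 3 of the 47 (6.38%), Psmb11, Psmb8 and Psmd13, against 13.75% of the genes of like level. The extremes were unevenly spread over libraries. The library cKO1 was lowest in 20 of the 47 (42.6%), against 20.5% of all genes tested, and WT2 was highest in 19 (40.4%), against 23.8%. WT3 was lowest in 11 (23.4%), against 11.1%. The mean log2 CPM of the 5 immunoproteasome genes Psmb8, Psmb9, Psmb10, Psme1 and Psme2 was 5.64, 5.89 and 5.91 in cKO libraries and 5.99, 5.92 and 5.93 in WT libraries, and cKO1 stood apart here too. Over the other 42 genes it was 5.61, 5.64 and 5.63 in cKO libraries and 5.64, 5.67 and 5.59 in WT libraries. The erythroid markers named above were high in the same library, cKO1; their part in its low values was not tested. Without WT2 and cKO1, 7 of the 47 genes (14.9%) lay lower and 10 (21.3%) lay higher in both cKO libraries than in both WT libraries, against 21.6% and 20.7% of all genes.

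**Figure D5:**
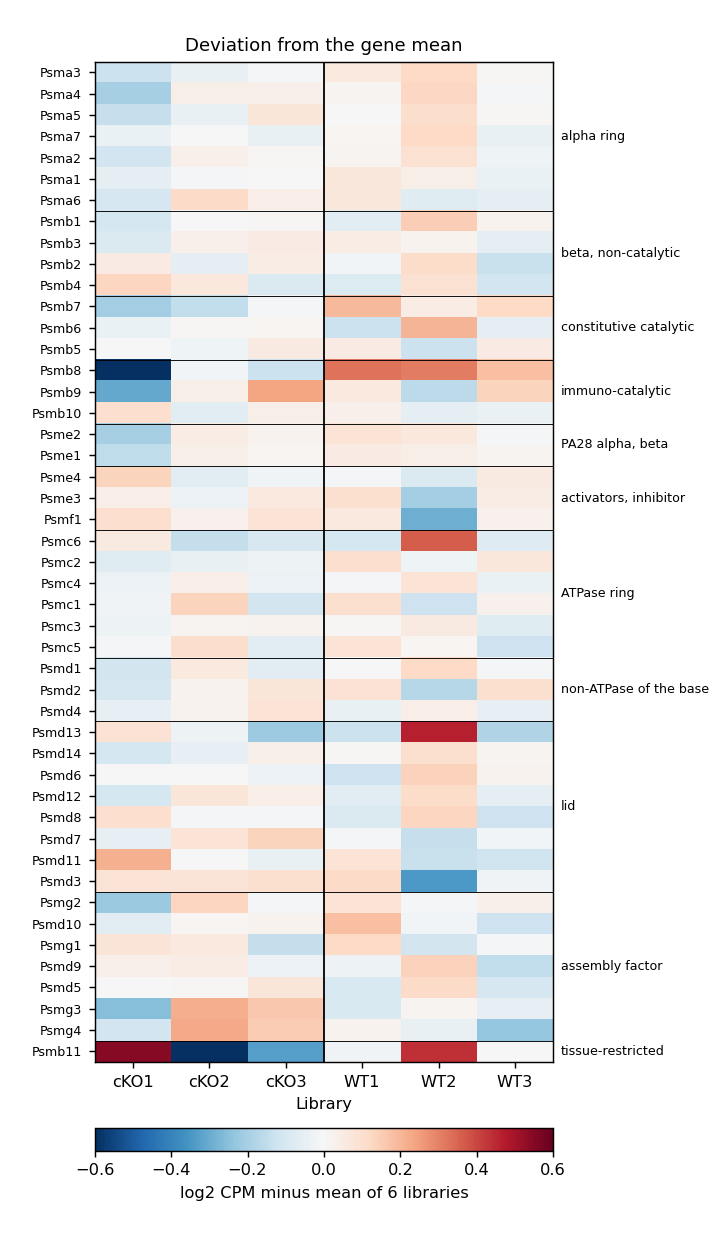
log2 CPM of each of the 47 genes in each library minus its mean over the 6 libraries (blue below, red above), cKO libraries left and WT libraries right of the line; values beyond 0.6 in size take the end colours. The column of cKO1 is blue in most alpha-ring, immunoproteasome and PA28 genes, WT2 holds the strongest red of the ordinary subunits in Psmd13 and Psmc6, and no role changes colour as a whole at the line.

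Genes that work with the proteasome were likewise not called in edgeR's test, in any of 5 lists. Of 17 genes of MHC class I antigen processing, 0 were called and 0 had an unadjusted p under 0.05, and the median log2 fold change was -0.03. The lowest p in that list belonged to Tapbp, the tapasin gene, which had 333, 294 and 316 CPM in cKO libraries and 308, 234 and 289 CPM in WT libraries, an overlap with WT2 low (log2 fold change 0.18 ± 0.12 SE, adjusted p = 0.824). Of 12 regulators of proteasome genes, 0 were called and 0 had an unadjusted p under 0.05, with a median of 0.06. Nfe2l2, which encodes the stress factor Nrf2, had the lowest p, with 29.6, 40.3 and 44.9 CPM in cKO libraries and 34.2, 25.5 and 34.3 CPM in WT libraries (0.29 ± 0.18 SE, adjusted p = 0.822). Nfe2l1, the factor that raises proteasome genes when the proteasome is blocked, had 86.2, 87.3 and 98.8 CPM in cKO libraries and 103.5, 65.4 and 99.6 CPM in WT libraries. Irf1, a factor of interferon-induced immunosubunits, was highest in WT2 and cKO1, at 519, 379.9 and 246 CPM in cKO libraries and 264, 547 and 272 CPM in WT libraries.

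Of 17 tested proteins that associate with the proteasome without a Psm symbol, 0 were called and 0 had an unadjusted p under 0.05, with a median of 0.00. The lowest p was that of Ubqln1, a shuttle of ubiquitinated proteins (142.7 ± 14.9 CPM in cKO and 129 ± 8.52 CPM in WT, SD, n = 3 each; edgeR adjusted p = 0.833). Of 18 genes of ubiquitin, its activation and the p97 segregase, 0 were called, and the median was 0.03. The ubiquitin-activating enzyme gene Uba6 was the 1 member with an unadjusted p under 0.05, with 17.9, 14.7 and 17.1 CPM in cKO libraries and 19.7, 22.2 and 18.4 CPM in WT libraries, lower in every cKO library (log2 fold change -0.28 ± 0.12 SE, adjusted p = 0.634 in edgeR's test). Of 12 heat shock chaperones and co-chaperones, a list that holds the mitochondrial Hspd1 and Hspe1 beside cytosolic ones, 0 were called and the median was -0.17. In that list 2 genes, Bag3 and Hsph1, were lower at an unadjusted p under 0.05, against 5.01% of all genes. Bag3, a co-chaperone, had 38.0, 35.3 and 21.7 CPM in cKO libraries and 47.6, 48.7 and 41.1 CPM in WT libraries (-0.53 ± 0.20 SE, adjusted p = 0.568 in edgeR's test). Hspa1a, the inducible Hsp70, varied over libraries of both groups, with 5.35, 26.4 and 136 CPM in cKO libraries and 163, 12.7 and 125 CPM in WT libraries.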

How the data were processed

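RNA was extracted with Trizol and sequenced after NEBNext Ultra library preparation on an Illumina HiSeq X instrument, per the labels. Tools listed without role or order in the submitters' processing notes are HISAT2 (2.0.5), featureCounts (1.5.0-p3) and DESeq2 (1.16.1), and the build is mm10. The authors deposited estimated counts per gene, not normalized, of which 45.4% to 46.3% per library were not whole (tolerance 0.01), for a reason the labels do not give. Among the 50 genes, 26 had a count that was not whole in at least 1 library. The authors also deposited FPKM, which scale with gene length and library depth by comparison with the counts.

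Counts were rounded. In R 4.3.3, genes passing filterByExpr of edgeR 4.0.16 (minimum count 10) were kept, libraries were scaled by TMM, and edgeR's quasi-likelihood F test was applied with the group as the only term, two-sided, with Benjamini-Hochberg adjustment over 12887 genes. Genes were called at an adjusted p under 0.05, and the code was tested on simulated data. The common biological coefficient of variation was 16.7%. The standard error was derived from the F statistic. Shares of FPKM were described without a test. Alternatives were DESeq2 1.42.0, limma-voom (limma 3.58.1), limma on log2(FPKM + 1), other scalings and filters, a replicate block, each library left out, and WT2 and cKO1 left out together. All 50 genes matched RefSeq (GRCm38.p6) by Entrez identifier; positions count from 1. The members, the gene lists and the tests were chosen with earlier results of these data known. The catalytic subunits, activators, inhibitor and Psmg genes, the 3 genes with the lowest p in each direction, the scarce genes and the rows outside the complex were named with all values, and of each role the lowest and highest level; Psmc2, Psmc6 and Psmd13 were added after their values were seen.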

Additional observations from a re-analysis of the deposited data

How the results depend on the processing

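No proteasome gene was called under any of 17 alternatives: 0 of the tested members passed, with 0 to 2 at an unadjusted p under 0.05. All 833 values of members under an alternative stayed on the same side of the threshold, and 60 had the opposite sign to the reported value, none of them called. The median log2 fold change of the 47 genes ran from -0.03 to 0.01, with 26 values below 0 and 21 above as reported. The split ranged from 30 and 17 without cKO2 to 20 and 27 without WT2 and cKO1. The number of genes called over the whole table, 27 as reported, was 179 with DESeq2, 43 without a filter on low counts, 9 with limma on log2(FPKM + 1), and 71 without WT2 and cKO1. It ran from 0 to 30 when single libraries were left out, with 30 without WT2 and 0 (681 to 909 at an unadjusted p under 0.05) without any other; in such fits the smaller group is assumed to vary like the other. With the replicate number as a block it was 0, with 811 genes at an unadjusted p under 0.05 and a lowest adjusted p among members of 0.788. The deviations of same-numbered libraries correlated at -0.278, 0.062 and 0.261, so the numbers were not taken as pairs. The difference in the immunosubunit share was 4.34 percentage points with the median of the single pairs in place of the sum, against 1.53 as reported. That median was the share of Psmb10 with Psmb7 in every library but cKO1. The cause of the other differences between alternatives was not tested. Depth limits the genes with low counts, among them Psmb8, Psmb11, Psma8, Psmg3 and Psmc3ip.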
